A study of Homo sapiens with 8 samples.

Results

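The ubiquitin-specific proteases (USPs) are the largest family of deubiquitinases, and their mRNAs were examined here for N6-methyladenosine (m6A) in Mel624 cells. Every entry of the m6A peak lists whose gene symbol was USP followed by a number, with or without a letter X, Y or L, was taken as a member. The rule used names only and no measured value. It gave 43 of the 10078 genes with a peak, with 90 of 18551 peaks in shFTO cells and 104 of 19072 peaks in shNC cells. Mel624 is an established human melanoma cell line. The 2 groups were Mel624 cells with a lentiviral short hairpin RNA against FTO (shFTO) and Mel624 cells with a negative control hairpin (shNC), both infected with lentivirus, selected with puromycin and grown in serum-containing medium; the labels give no further treatment. FTO removes m6A from RNA, and the comparison asks which places on the USP mRNAs changed in m6A when FTO was knocked down. Each group had 2 replicates, and each replicate had an m6A immunoprecipitation (IP) and an input library of poly(A) RNA, so that there were 8 libraries. The labels do not say whether the replicates came from separate cultures, and p-values then measure the spread between these replicates, which may be technical.

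Each peak carries a log2 enrichment score for each replicate, which compares IP with input in that place with the median window along that mRNA as its base. A score of 3 therefore describes a place on the mRNA and says nothing of how much of the mRNA there was. There is 1 list of peaks per group and no read count in either list, so the depth is unknown and a missing peak cannot be told apart from an mRNA with too few reads. FTO itself was listed with 2 peaks in shFTO cells and 3 in shNC cells, but these scores do not measure the amount of its mRNA and do not check the knockdown. All 7 melanocyte lineage genes looked up (MITF, SOX10, TYR, TYRP1, DCT, PMEL and MLANA) had a peak in both lists. The 3 keratinocyte and the 3 fibroblast genes had none, and of 3 leukocyte genes CD68 was listed while PTPRC and CD3E were not.

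USPs are cysteine proteases that cleave ubiquitin from proteins or trim ubiquitin chains. By removing ubiquitin they can spare a protein from the proteasome, change its place in the cell or switch a signalling complex off, and members of the family act on cell cycle proteins, on histones, on receptors in endosomes and on mitochondria. m6A is written on mRNA by the METTL3 and METTL14 complex in short motifs of which GGACU is the most typical, often near stop codons and in long internal exons. Reader proteins that bind m6A affect the stability, splicing and translation of the mRNA.

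The GGACU motifs listed under USP peaks with a score of 5 or more in either group are shown first, followed by that under the USP30 peak with the largest difference between the groups, since the lists name these places. Isoform positions were matched to GENCODE transcripts for 22 of the 24 USP isoforms with a listed GGACU. Capitals mark the GGACU and lower case the 10 bases on each side, on the mRNA strand, and the coordinates are those of the whole printed stretch in hg38.
USP10 coding sequence, nt 886, chr16:84745091-84745115, plus strand: guuacgcccaGGACUuguaacagcc
USP10 coding sequence, nt 976, chr16:84745181-84745205, plus strand: agugacaccaGGACUgcagggcagc
USP32 coding sequence, nt 4488, chr17:60181659-60181683, minus strand: agcagcccacGGACUuuggggagga
USP34 coding sequence, nt 1993, chr2:61348173-61348197, minus strand: uuugccugggGGACUcccaaggcau
USP34 coding sequence, nt 2206, chr2:61347960-61347984, minus strand: cacgaacuggGGACUuccuugggga
USP34 coding sequence, nt 10550, chr2:61188204-61188228, minus strand: ccauuccagaGGACUcuuuagucau
USP47 coding sequence, nt 3451, chr11:11942696-11942720, plus strand: ucaaugagagGGACUcuucagcauc
USP47 coding sequence, nt 3656, chr11:11942901-11942925, plus strand: uuuggcuaauGGACUugacucucac
USP47 3′UTR just after the stop codon, nt 4956, chr11:11956287-11956311, plus strand: agcacugauuGGACUgcccuacacc
USP24 3′UTR just after the stop codon, nt 8219, chr1:55068931-55068955, minus strand: ccuggagauuGGACUgggaaagcug
USP30 3′UTR, nt 3530, chr12:109087411-109087435, plus strand: ugcacccugaGGACUcaguaacuca
A peak is wider than the motif, and the scores do not say which adenosine in it was methylated. For the high peaks of USP22, USP3 and USP53 the lists name no GGACU. The same holds for the shNC peaks of USP32 at nt 4822 and of USP10 at nt 675. No sequence is given for any of these peaks.

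USP mRNAs carried more and higher peaks than the lists as a whole. There were 2.37 peaks per USP gene in shFTO cells, against 1.96 over all genes of that list, and 2.42 in shNC cells, against 2.05. Genes with 4 or more peaks made up 21.1% of the USP genes in shFTO cells (8 genes), against 9.99% of all genes, and 20.9% in shNC cells (9 genes), against 11.7%. The median score of the USP peaks was 3.15 in shFTO cells, against 2.52 over all peaks, and 3.25 in shNC cells, against 2.55. A score of 5 or more was found for 8 USP peaks (8.89%) in shFTO cells, against 4.72% of all peaks, and for 12 (11.5%) in shNC cells, against 4.92%. These are descriptions of the lists, without a test, because peaks on 1 mRNA share that mRNA and its median window. Transcript length, which sets how much room there is for peaks, was not taken into account.

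USP peaks also lay more often inside the coding sequence and less often at the start codon. The authors give each peak 1 of 5 mRNA regions. In shFTO cells 43 of the 90 USP peaks (47.8%, exact 95% interval 37.1 to 58.6) were in the coding sequence, against 32.1% of all peaks, and in shNC cells 45 of 104 (43.3%, 33.6 to 53.3), against 32.7%. The start codon held 6.67% of the USP peaks (2.49 to 13.9) in shFTO cells, against 16.8% of all peaks, and 7.69% (3.38 to 14.6) in shNC cells, against 16.6%. Both start codon intervals and both coding sequence intervals leave out the value over all peaks. These Clopper-Pearson intervals cover counting error only and treat peaks of 1 mRNA as separate, and both lists describe largely the same places, so the second list does not repeat the first independently. Stop codon peaks were as common on USP mRNAs as elsewhere (20% in shFTO cells, against 20% of all peaks, and 20.2% in shNC cells, against 19.4%), as were 3′UTR peaks (18.9% in shFTO cells, against 21.2% of all peaks, and 22.1% in shNC cells, against 21.8%).

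**Figure D1:**
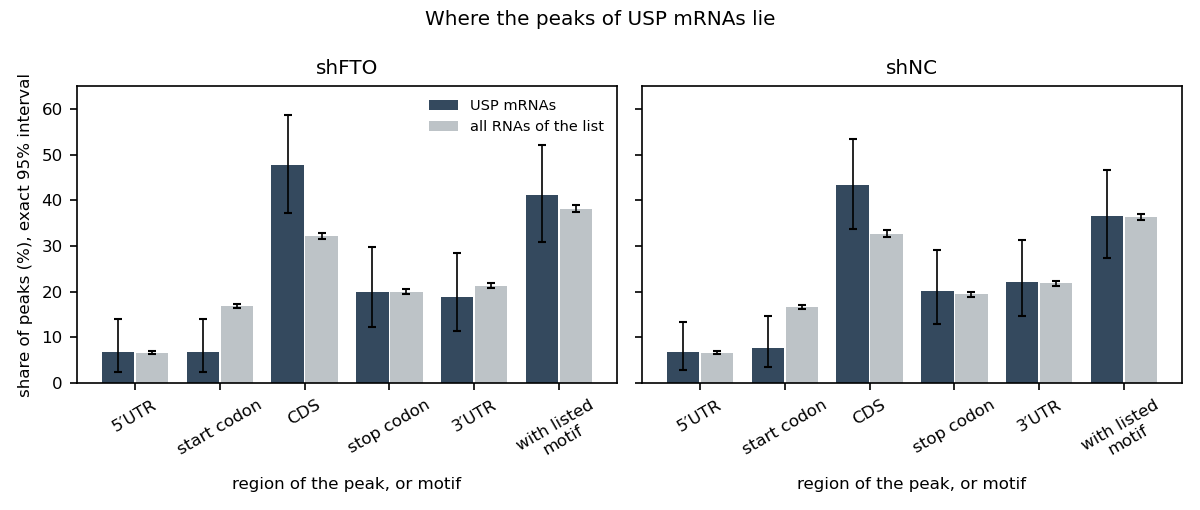
Share of peaks in each mRNA region, and with the GGACU motif listed in the peak, for USP mRNAs (dark bars) and for all RNAs of the same list (light bars), in shFTO (left) and shNC (right). Error bars are exact 95% intervals for counting error. The coding sequence bar of the USP mRNAs is above, and the start codon bar below, that of all RNAs in both lists.

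GGACU was about as frequent in USP peaks as in all peaks when the regions were pooled. It was listed in 41.1% of the USP peaks in shFTO cells, against 38.1% of all peaks, and in 36.5% in shNC cells, against 36.3%. In coding sequence peaks it was listed in 23 of 43 USP peaks (53.5%) in shFTO cells, against 37.5% of all coding sequence peaks, and in 24 of 45 (53.3%) in shNC cells, against 35.1%. At stop codons it was listed in 5 of 18 USP peaks (27.8%) in shFTO cells, against 43.9% of all stop codon peaks, and in 5 of 21 (23.8%) in shNC cells, against 42.2%. In the 3′UTR it was listed in 5 of 17 USP peaks (29.4%) in shFTO cells, against 42.9%, and in 5 of 23 (21.7%) in shNC cells, against 40.4%. These regional counts are small and their differences from all peaks were not tested. Of the USP peaks with a score of 5 or more, 6 of 8 in shFTO cells and 7 of 12 in shNC cells held GGACU. Related motifs, read on the mRNA strand, were counted on the matched isoforms, 21 with peaks in shFTO cells and 22 in shNC cells. The motif GGACA was found in 41.4% of the peaks in shFTO cells, against 28.6% of windows of the same length on the same isoforms. In shNC cells it was found in 40%, against 27.7%. The motif AGACU was found in 32.8% of the peaks in shFTO cells, against 26% of such windows, and in 30.8% in shNC cells, against 25.3%. For GGACC the shares were 34.5% in shFTO cells, against 25.7%, and 35.4% in shNC cells, against 23.8%. For GAACU they were 37.9% in shFTO cells, against 29.7%, and 32.3% in shNC cells, against 28.4%. These isoforms were selected for a listed GGACU, and shares for GGACU itself on them are therefore not given. A match is a description of the letters and not a methylation site.

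Most of the highest USP peaks were listed in both groups. Of the 12 USP peaks with a score of 5 or more in shNC cells, 2 (in USP32 and USP10) had no overlapping peak in shFTO cells. The USP3 peak and the USP24 stop codon peak were lower in both shFTO replicates. That USP24 peak had 4.73 and 4.87 in shFTO cells, against 5.04 and 5.03 in shNC cells (log2 ratio −0.23). USP10, which binds the stress granule protein G3BP1, had the highest, in its coding sequence at nt 819 to 1235 around the 2 motifs shown above. Its scores were 7.07 and 6.53 in shFTO cells, against 6.97 and 6.35 in shNC cells. USP32, a Golgi-linked member, had 6.92 and 6.37 in shFTO cells, against 6.63 and 6.46 in shNC cells, at nt 4340 to 4602 of its coding sequence. In both genes the groups overlapped.

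USP34, which acts on axin in Wnt signalling, had a pair of coding sequence peaks above 5 and each held GGACU. At nt 10343 the scores were 6.22 and 6.25 in shFTO cells, against 6.15 and 5.91 in shNC cells. At nt 1968 they were 6.13 and 5.74 in shFTO cells, against 5.91 and 5.55 in shNC cells. The first pair did not overlap, with a log2 ratio of 0.20 (95% interval −0.45 to 0.85), and the second did. USP22, the deubiquitinase of the SAGA complex that acts on histone H2B, had 6.18 and 5.68 in shFTO cells, against 6.23 and 6.01 in shNC cells, in its 3′UTR at nt 1910. USP47, which acts on DNA polymerase beta in base excision repair, had 5.95 and 5.71 in shFTO cells, against 5.53 and 5.77 in shNC cells, at nt 3171. USP53, a tight junction protein, had 5.86 and 5.59 in shFTO cells, against 5.21 and 6.41 in shNC cells, at nt 3510 to 4138, where the shNC replicates lay farther apart than any difference between the groups. The place of the highest peak was the same in both lists for 36 of the 38 genes listed in both, and differed for USP14 and USP30.

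**Figure D2:**
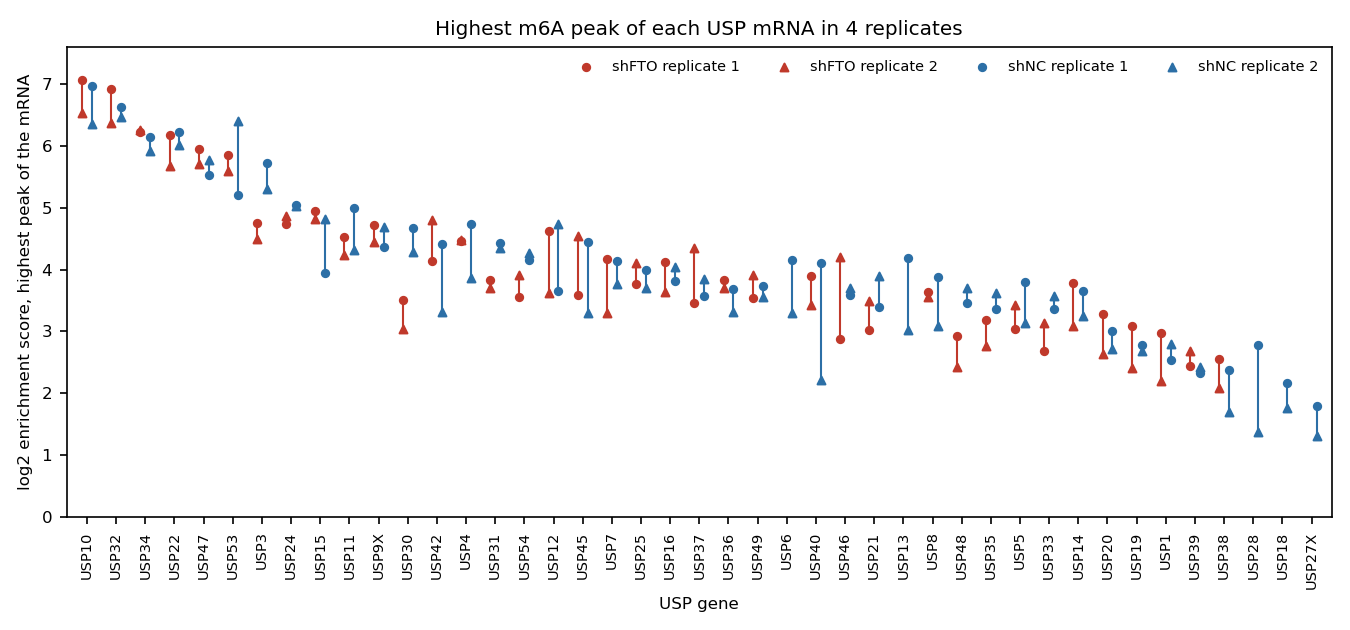
Log2 enrichment score of the highest peak of each of the 43 USP mRNAs, by replicate, in shFTO (red) and shNC (blue), ordered by the higher group mean; a vertical line joins the replicates of a group. USP10 and USP32 are highest in both groups, and 5 genes have shNC points only. The points of USP30 and USP14 come from different places of the mRNA in the 2 groups.

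Of the 43 genes, 38 had a peak in both lists, 5 had peaks in shNC cells only and 0 in shFTO cells only. The 5 genes are 11.6% of the USP genes listed in shNC cells, against 6.49% of all genes of that list without a peak in shFTO cells. Of the 38 USP genes listed in shFTO cells, 0 were without a peak in shNC cells, against 8.25% of all genes of that list. All 5 had few or low peaks. USP13, which acts on the autophagy regulator beclin, had 1 stop codon peak (4.19 and 3.03). USP28, a stabiliser of MYC, had a stop codon peak of 2.78 and 1.37 and a coding sequence peak of 1.47 and 1.17. USP18, which removes the ubiquitin-like ISG15, had a start codon peak of 2.16 and 1.76, and USP27X, a relative of USP22, a stop codon peak of 1.80 and 1.31.

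USP6 is the remaining one of the 5, with a coding sequence peak of 4.15 and 3.29 in shNC cells. USP6 arose from USP32 in primates, and the bases under its peak are 96.2% identical (230 of 239) to nt 4274 to 4512 of USP32. The GGACU listed at nt 5295 of USP6 falls on the GGACU of USP32 at nt 4488 shown above, under the strong USP32 peak. Reads were kept at 1 place in the genome, so those of the 2 genes can be mixed there and the USP6 peak is uncertain. The same holds in the other direction for USP32, whose peaks at nt 4340 and nt 4822 are 95.8% and 95.4% identical to USP6 in the shNC list. USP18 also has near copies in the genome.

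Of the single peaks, 9 of 90 (10.0%) in shFTO cells had no overlapping peak in shNC cells, against 14.2% of all shFTO peaks, and 18 of 104 (17.3%) in shNC cells had none in shFTO cells, against 14.6% of all shNC peaks. The highest was a stop codon peak of USP32 at nt 4822 to 5106, listed in shNC cells at 6.19 and 6.15 and not listed in shFTO cells. USP10 had 2 such peaks in shNC cells, at nt 675 to 818 (5.89 and 5.07) and nt 554 to 674 (4.68 and 4.15). They directly abut each other and the shared peak at nt 819, so in shNC cells the USP10 region was wider. In USP34 this was the other way round, with a peak at nt 10007 to 10331 in shFTO cells only (5.26 and 4.64) that abuts the shared peak. USP53 had a coding sequence peak at nt 2578 to 2832 in shNC cells only (4.43 and 4.54), and USP31 a 3′UTR peak at nt 7267 to 7516 (3.41 and 2.98). Apart from USP34, the highest peak in shFTO cells only was in the 3′UTR of USP49, a histone H2B deubiquitinase, at nt 2471 to 2950 (2.80 and 2.61). A peak missing from 1 list has no score there, and no difference was tested for it.

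Peaks per gene differed between the lists without a common direction in the genes with most peaks. USP31 had 4 in shFTO cells and 7 in shNC cells, the most among the USP genes of that list, mostly in its coding sequence. USP36, a nucleolar deubiquitinase, had 4 in shFTO cells and 6 in shNC cells. USP9X, which stabilises MCL1 and acts in TGF-beta signalling, had 4 in shFTO cells and 5 in shNC cells, and USP47 had 3 in shFTO cells and 5 in shNC cells. USP20 had 5 in both lists, 4 of them in 1 run in its 3′UTR. USP54 and USP38 had 5 in shFTO cells and 3 in shNC cells, and USP34 had 5 in shFTO cells and 4 in shNC cells. USP8, which deubiquitinates receptors in endosomes, had 4 in shFTO cells and 2 in shNC cells. USP10, USP24 and USP42 had 3, 2 and 3 in shFTO cells, against 4 each in shNC cells. Over all 43 genes, 6 had more peaks in shFTO cells, 17 had more in shNC cells and 20 had the same number. This split was not counted over all genes of the lists. Peaks per gene were also fewer in shFTO cells over all genes (1.96, against 2.05 in shNC cells), so the split is not a result about USPs. Part of these counts is how the windows were cut into peaks, since 19 USP peaks in shFTO cells and 29 in shNC cells directly abut another.

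**Figure D3:**
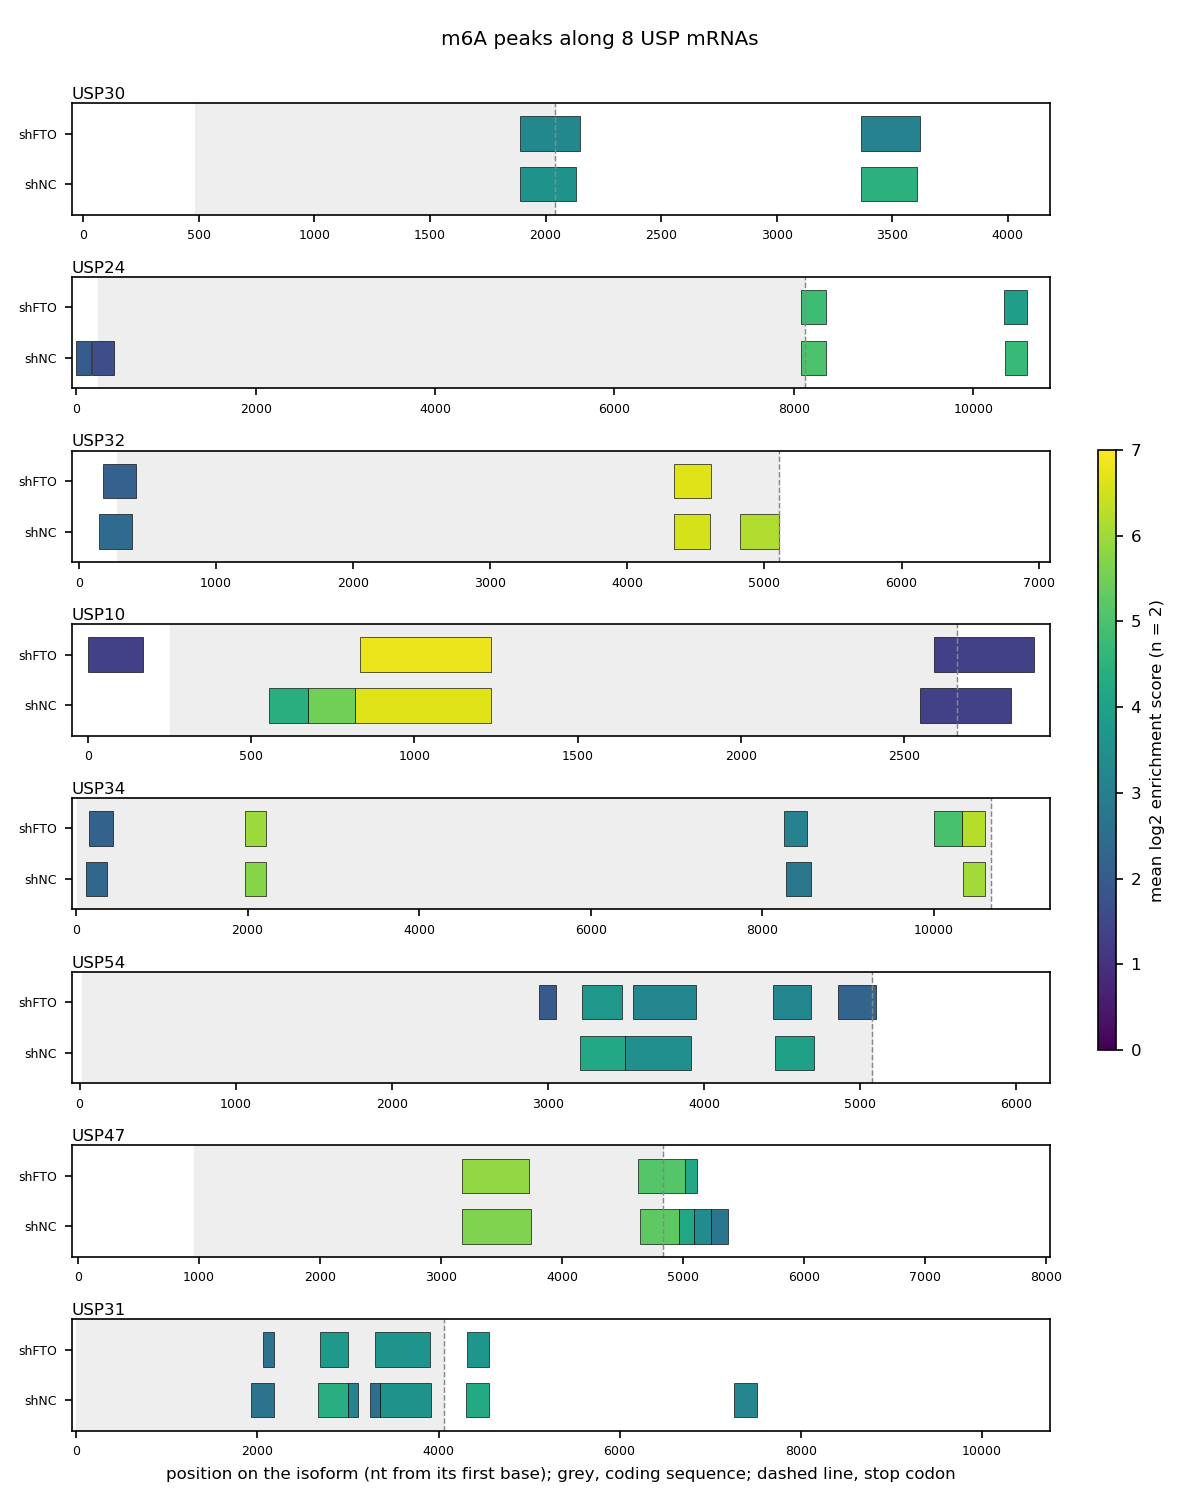
m6A peaks along 8 USP mRNAs in shFTO (upper row of each panel) and shNC (lower row), by position on the isoform in nt, with the coding sequence in grey and a dashed line at the stop codon. Colour gives the mean log2 enrichment score of the 2 replicates. The strongest peaks of USP10, USP32 and USP34 lie inside the coding sequence, and the USP30 peak in the 3′UTR is the one listed in both groups whose colour differs most.

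No USP peak differed between the groups after correction for all peaks tested. A peak was compared where it overlapped exactly 1 peak of the other list, which gave 12117 pairs over all genes and 63 USP pairs in 36 genes. In limma 0 of the 63 had a Benjamini-Hochberg adjusted p under the threshold of 0.05 (lowest 0.542), and over all peaks 0 of 12117 (0.0%) did. At an unadjusted p under 0.05, 0 USP pairs were higher in shFTO cells, against 2.3% of all pairs, and 4 (6.35%) were lower, against 3.68% of all pairs. The groups did not overlap with shFTO higher in 6 USP pairs (9.52%), against 15.7% of all pairs, and with shFTO lower in 11 (17.5%), against 17.7%. For the USP pairs the log2 ratio (shFTO over shNC) had a median of −0.05 (quartiles −0.27 and 0.18), against −0.01 for all pairs. One pair, in USP30, reached an absolute log2 ratio of 1, which is 1.59% of the USP pairs, against 2.16% of all pairs. The 95% interval of each of the 63 ratios was wider than 1 log2 unit, so small changes were not detectable with 2 replicates.

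All 4 USP pairs with an unadjusted p under 0.05 were 3′UTR peaks and all were lower in shFTO cells. USP30, which opposes mitophagy by deubiquitinating proteins on the outer mitochondrial membrane, had the largest difference, at nt 3365 to 3605 over the GGACU shown above. Its scores were 2.96 and 3.23 in shFTO cells, against 4.67 and 4.28 in shNC cells. The groups did not overlap, and the log2 ratio was −1.38 (95% interval −2.06 to −0.69; adjusted p 0.542 in limma), or 0.385 times as high on the linear scale. The other USP30 peak, at the stop codon, had 3.51 and 3.04 in shFTO cells, against 3.84 and 3.24 in shNC cells, and overlapped.

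USP3, which removes ubiquitin from histones H2A and gammaH2AX, had a single peak, in its 3′UTR at nt 2048 to 2286. Its scores were 4.76 and 4.49 in shFTO cells, against 5.72 and 5.30 in shNC cells (log2 ratio −0.88, 95% interval −1.57 to −0.19; adjusted p 0.723 in limma). The second USP22 peak, at nt 4710 to 4948 far downstream in the 3′UTR, had 1.87 and 2.0 in shFTO cells, against 2.67 and 2.85 in shNC cells (−0.83, −1.48 to −0.18; adjusted p 0.723 in limma). USP24, a large member that acts on MCL1 among others, had 4.06 and 3.76 in shFTO cells, against 4.80 and 4.62 in shNC cells, at nt 10358 to 10598 of its 3′UTR (−0.80, −1.46 to −0.13; adjusted p 0.744 in limma). In each of the 3 the shFTO replicates both lay below the shNC replicates.

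**Figure D4:**
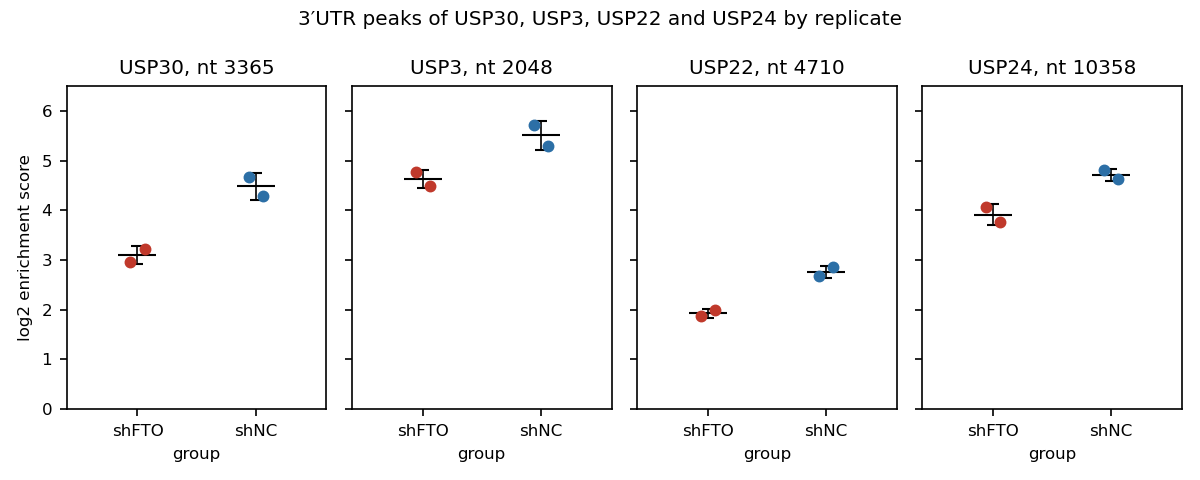
Log2 enrichment scores of the 3′UTR peaks of USP30, USP3, USP22 and USP24 by replicate (points), with the group mean (long horizontal bar) and SD (error bar, n = 2), in shFTO (left in each panel) and shNC (right). Both shFTO points lie below both shNC points in each panel, and the adjusted p in limma is between 0.542 and 0.744.

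The 9 USP pairs in the 3′UTR, in 7 genes, had a median log2 ratio of −0.58, and 8 of the 9 were below 0. Over all 2406 pairs in the 3′UTR the median was −0.02, with 52.1% below 0 and 3.53% lower at an unadjusted p under 0.05. The remaining USP pairs of this region were USP31 at nt 4304 (−0.58), USP40 at nt 4960 (−0.20), the first USP22 peak (−0.19), USP46 (−0.11) and USP40 at nt 4074 (0.21). USP31 had 3.74 and 3.62 in shFTO cells, against 3.67 and 4.85 in shNC cells, and its ratio rested on shNC replicate 2, since without that replicate it was 0.01. The median was 0.08 for the 30 coding sequence pairs, 0.04 for the 14 at stop codons, −0.13 for the 5 in the 5′UTR and −0.03 for the 5 at start codons. The difference between regions was seen after the values were known and was not tested.

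**Figure D5:**
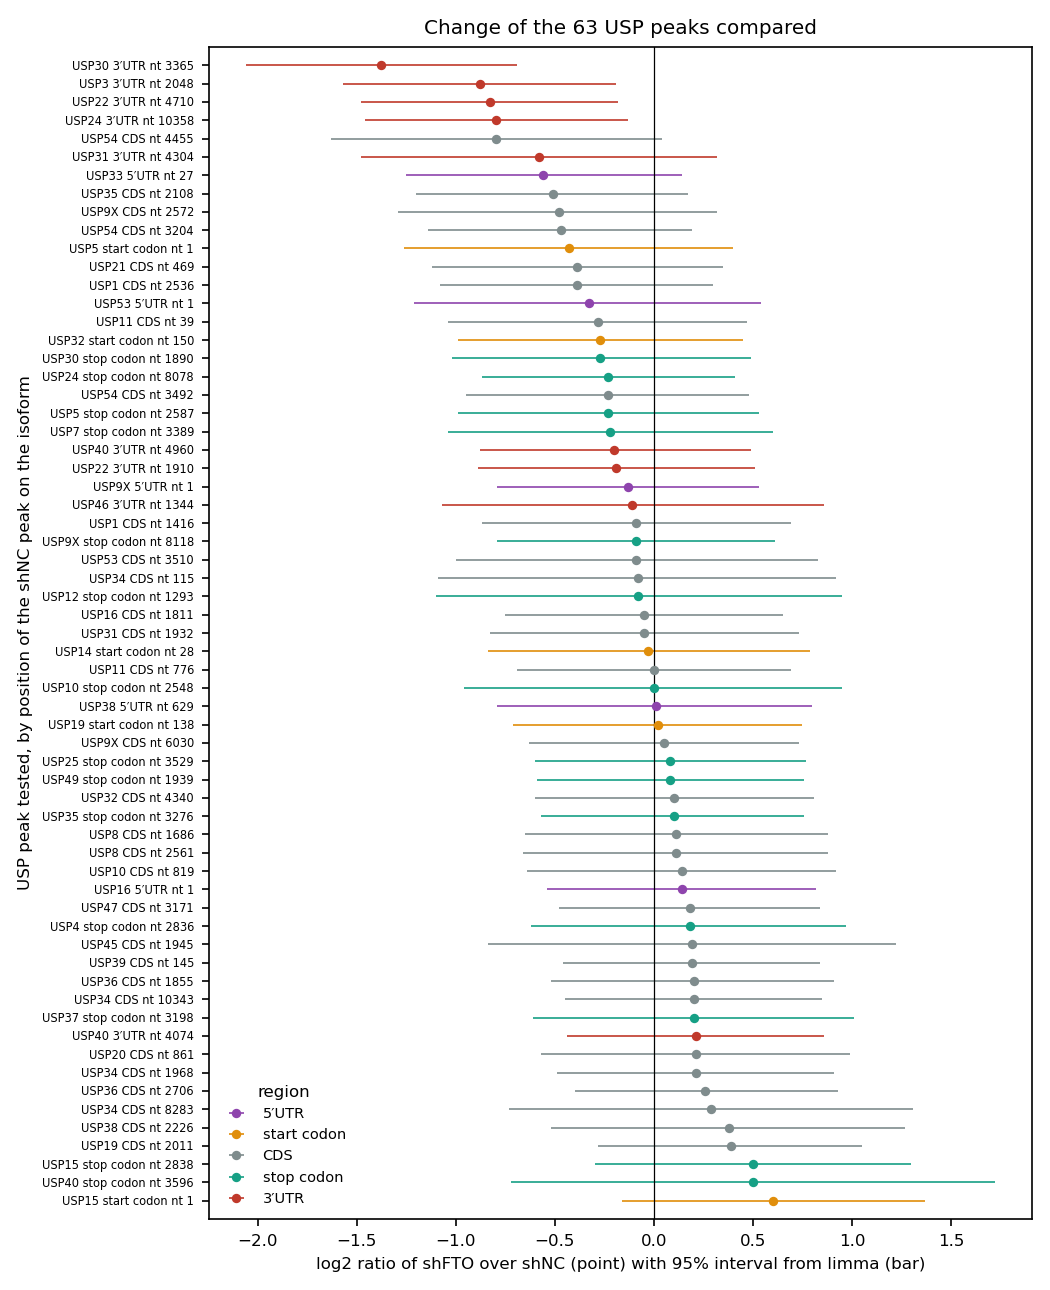
Log2 ratio of shFTO over shNC (points) with the 95% interval from limma (bars) for the 63 USP pairs, from the lowest at the top to the highest at the bottom, coloured by the region of the shNC peak. The 4 intervals that lie wholly below 0 are all 3′UTR peaks, and none lies wholly above 0.

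The score is relative to the median window of the mRNA, so a shift of that window moves all peaks of an mRNA together. The difference between the last and the first tested peak of an mRNA does not contain it, and was fitted in limma for 3063 isoforms, 21 of them USPs, as an addition made after the data were seen. For USP30 the last peak minus the first was −0.55 and 0.19 in shFTO cells, against 0.82 and 1.04 in shNC cells, a difference of −1.11 (95% interval −1.91 to −0.31; adjusted p 0.602 in limma). For USP22 the difference was −0.64 and for USP24 −0.57, with the groups not overlapping in either and intervals that include 0. The groups also did not overlap, with shFTO lower, in USP1 (−0.30) and USP16 (−0.18). With shFTO higher they did not overlap in USP35 (0.61), USP19, USP32 and USP38 (0.37 each), USP53 (0.25) and USP5 (0.20). How often the groups did not overlap over all isoforms was not counted, so the USPs named are not set apart from other mRNAs. For single peaks the groups did not overlap in 15.7% of all pairs with shFTO higher and in 17.7% with shFTO lower. The median difference of the 21 USPs was 0.0, against 0.01 over all isoforms. USP30 was the only USP with an unadjusted p under 0.05 here, against 3.23% of all isoforms lower at that level, and 0 of 3063 isoforms passed the adjusted threshold. Of the 21 USP genes with at least 2 tested pairs, 8 had all ratios below 0 (USP1, USP5, USP22, USP24, USP30, USP31, USP53 and USP54), 5 had all above 0 (USP8, USP15, USP19, USP36 and USP38) and 8 had both signs.

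Outside the 3′UTR, the lowest ratio was that of USP54, one of the less studied members, at nt 4455 in its coding sequence. Its scores were 2.92 and 3.47 in shFTO cells, against 4.41 and 3.58 in shNC cells (−0.80, 95% interval −1.63 to 0.04; adjusted p 0.832 in limma). Without single replicates this ratio moved to −0.52 (shFTO replicate 1), −0.38 (shNC replicate 1) or −1.21 (shNC replicate 2). USP33, which deubiquitinates the beta2-adrenergic receptor, had 2.69 and 3.14 in shFTO cells, against 3.36 and 3.58 in shNC cells, in its 5′UTR (−0.56, −1.25 to 0.14; adjusted p 0.881 in limma), and the ratio was −0.33 without shFTO replicate 1. The highest ratio was that of USP15, which acts on the TGF-beta receptor and on R-SMADs, at its start codon, with 2.91 and 3.70 in shFTO cells, against 2.67 and 2.73 in shNC cells (0.60, −0.16 to 1.37; adjusted p 0.887 in limma). That ratio was 1.0 without shFTO replicate 1 and 0.21 without shFTO replicate 2. Its stop codon peak had 4.94 and 4.82 in shFTO cells, against 3.94 and 4.82 in shNC cells.

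By role, no group had a peak past the adjusted threshold. The 9 listed genes that act in DNA damage or the cell cycle had 14 peaks in shFTO cells and 20 in shNC cells, with 10 tested pairs of ratios from −0.39 to 0.20. They include USP7, which deubiquitinates MDM2, with a single stop codon peak of 4.17 and 3.29 in shFTO cells, against 4.14 and 3.76 in shNC cells. USP11, which acts in homologous recombination through BRCA2 and PALB2, had 4.52 and 4.23 in shFTO cells, against 5.0 and 4.32 in shNC cells, at nt 39. The 8 histone and chromatin genes had 9 tested pairs with a median of −0.05. The 2 lower at an unadjusted p under 0.05 were those of USP3 and USP22, against 3.68% of all pairs. USP42, a histone H2B deubiquitinase, had 4.14 and 4.80 in shFTO cells, against 4.42 and 3.31 in shNC cells, at its highest peak, which was in no tested pair because its peaks were divided differently.

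The 8 genes of endosomes, membranes and autophagy had 10 tested pairs with a median of 0.06. Among them 1, in USP30, was lower at an unadjusted p, against 3.68% of all pairs. USP8 had 3.63 and 3.56 in shFTO cells, against 3.88 and 3.09 in shNC cells, at nt 1686. The 4 genes of growth factor, TGF-beta, Wnt and Hippo signalling had 11 pairs with a median of 0.08. None was past an unadjusted p of 0.05, against 2.3% of all pairs higher and 3.68% lower. USP9X had its highest peak in the coding sequence at nt 6030, with 4.72 and 4.44 in shFTO cells, against 4.36 and 4.69 in shNC cells. USP25 had 3.76 and 4.11 in shFTO cells, against 3.99 and 3.70 in shNC cells, at its stop codon.

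The smaller groups were the partners of WDR48, a cofactor that activates USP1, USP12 and USP46, and those of the proteasome, splicing and innate signalling. The pairs of these groups are few and partly on the same mRNA, and of all pairs 51.6% were below 0. A difference of such a group from all pairs was not tested. All 4 tested pairs of the WDR48 partners lay between −0.39 and −0.08. USP12 had 4.62 and 3.62 in shFTO cells, against 3.65 and 4.74 in shNC cells. USP5, which takes apart free ubiquitin chains, and USP14, which trims ubiquitin on the proteasome, had 3 tested pairs from −0.43 to −0.03. USP4, USP15 and USP39, which take part in the splicing machinery, had 4 pairs from 0.18 to 0.60. USP4 had 4.47 and 4.48 in shFTO cells, against 4.73 and 3.86 in shNC cells. USP38, which acts in innate signalling, had 2 pairs at 0.01 and 0.38. The 7 genes of fewer known roles had 15 pairs with a median of −0.23, of which 11 were below 0, against 51.6% of all pairs, and 1, in USP24, was lower at an unadjusted p, against 3.68% of all pairs. In 9 further places of the USP mRNAs the lists divided a region differently, with 18 peaks in shFTO cells and 23 in shNC cells. The ratios of these joined regions lay between −0.45 in USP48 and 0.47 in USP36.

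Other deubiquitinases, looked up by symbol (UCH, OTU, Josephin, JAMM and MINDY families among them, with old and new symbols), were listed for 33 of 42 symbols, 32 in shFTO cells and 30 in shNC cells. Their 44 tested pairs had a median log2 ratio of 0.19, with 2 higher at an unadjusted p, against 2.3% of all pairs, and 0 lower, against 3.68%, none past the adjusted threshold. The 2 were MPND at its start codon (3.58 and 3.98 in shFTO cells, against 3.18 and 2.65 in shNC cells) and FAM188A at its start codon (3.78 and 3.17 in shFTO cells, against 2.37 and 2.89 in shNC cells). The difference between these families and the USPs was not tested. Of 20 partners and known substrates of USPs, 19 were listed in both groups, and their 26 pairs had a median of 0.02, with 1 higher (SMURF2) and 1 lower (MCL1) at an unadjusted p, against 2.3% and 3.68% of all pairs. SMURF2, a ubiquitin ligase of TGF-beta signalling, had 2.48 and 2.68 in shFTO cells, against 1.63 and 1.84 in shNC cells, in its 5′UTR (0.84, 95% interval 0.19 to 1.49; adjusted p 0.723 in limma). STAM2 at its start codon (0.62) and STAM at its stop codon (0.60), which sort receptors in endosomes, were also higher without overlap of the groups. The groups overlapped at the STAM2 pair in its coding sequence (0.06). Of the 26 pairs, 5 were higher and 5 lower without overlap, against 15.7% and 17.7% of all pairs. MDM2, a ubiquitin ligase and a target of USP7, had 6.07 and 5.90 in shFTO cells, against 5.77 and 6.09 in shNC cells, in its 3′UTR at nt 4083. At nt 3759 of that 3′UTR it had 5.02 and 4.58 in shFTO cells, against 5.36 and 5.05 in shNC cells. The groups did not overlap there (−0.40, 95% interval −1.10 to 0.30, adjusted p 0.952 in limma). MITF, the melanocyte lineage factor that USP13 stabilises, had 5.87 and 4.99 in shFTO cells, against 6.01 and 5.88 in shNC cells (−0.52, −1.32 to 0.28; adjusted p 0.933 in limma). YAP1, a Hippo effector, had 4.74 and 3.65 in shFTO cells, against 4.53 and 5.33 in shNC cells. MCL1, an antiapoptotic protein that USP9X stabilises, had 1.69 and 1.38 in shFTO cells, against 2.30 and 2.13 in shNC cells, at its start codon (−0.68; adjusted p 0.827 in limma) and 4.55 and 4.60 in shFTO cells, against 4.46 and 4.63 in shNC cells, at its stop codon. The 6 ubiquitin genes and E1 enzymes were listed in both groups, with 9 pairs and a median of 0.13.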

How the data were processed

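m6A-seq of Mel624 cells with shFTO or shNC was analysed from the deposited peak lists, 1 per group. Per the labels and the study's methods, the authors removed adapters with cutadapt, aligned reads to hg38 with TopHat2 version 2.0.14, moved them to the longest RefSeq isoform of each gene, scanned windows of 100 bp in steps of 10 bp with reads extended to 150 bp, and merged windows that passed Fisher's exact test and a log2 enrichment score of 1. The deposited values are log2 enrichment scores per replicate, each relative to the median window of the mRNA; they are not scaled to depth or expression. Peaks of the lists that shared at least 1 bp were paired, and 1-to-1 pairs were fitted in limma version 3.58.1 (R version 4.3.3; lmFit, eBayes, group only) with Benjamini-Hochberg adjustment over all 12117 pairs, after a test on simulated data. Isoforms were matched to GENCODE version 44 through the listed GGACU positions, and all 34 sites within 1 exon were equal to the genome. Python version 3.11.15, pandas version 2.3.3, numpy version 2.4.6, scipy version 1.17.1 and matplotlib version 3.10.9 were used. The members, lists and role groups were chosen with earlier results of these data known. Genes were named by a rule of highest peak per role (up to 4), largest ratio (8), smallest p (6), peaks of 1 list and 4 or more peaks, plus 5 USP targets, of which 1 is not reported here; MPND, FAM188A, SMURF2, STAM and STAM2 were named after their values were seen. Same-numbered replicates deviated in opposite directions (correlation −0.2733 over all pairs), so no pairing by number was used. Over all pairs shFTO replicate 1 correlated at 0.925 with shNC replicate 2 and at 0.908 with shFTO replicate 2. The reason was not tested.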

Additional observations from a re-analysis of the deposited data

How the results depend on the processing

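Of 209 values recomputed under an alternative, 189 were graded as unchanged. The grade allowed for moves in size, such as the USP54 ratio from −0.80 to −0.38 without shNC replicate 1. Many ratios could not move, because the same pair was reused or the replicate block left the difference of the group means as it was. The 189 are therefore not a measure of robustness. No USP peak passed the adjusted threshold in the fits with both replicates of each group. The number of all peaks called, 0 in the fit reported, was 0 with a replicate block and 13 with the replicate numbers crossed, a block added after the data were seen because the deviations of same-numbered replicates were correlated at −0.2733; 0 USP peaks were among the 13. Without single libraries it was 0 to 11 (7 without shFTO replicate 1, 11 without shFTO replicate 2, 0 without shNC replicate 1, 6 without shNC replicate 2). Without single libraries the USP median log2 ratio was −0.21 to 0.06. The USP31 ratio at nt 4304 was −1.17 without shNC replicate 1 and turned to 0.01 without shNC replicate 2. The USP30 ratio lay between −1.57 without shNC replicate 2 and −1.18 without shNC replicate 1. With the replicate numbers crossed, this USP30 peak had an adjusted p of 0.109 in limma, and 5 USP peaks were lower at an unadjusted p under 0.05. With 1 value per gene, 2 USP genes in place of 4 peaks were lower at an unadjusted p. The shares over all pairs or genes were not recorded for the crossed fit and the fit per gene. These counts are therefore not a result about USPs. Where peak centres had to lie within 50 bp, 17 USP peaks were found in shFTO cells only and 31 in shNC cells only. The shares over all peaks under that rule were not recorded. With the highest peak of each gene, stop codons held 34.2% in shFTO cells and 30.2% in shNC cells, 3′UTRs 10.5% in shFTO cells and 14% in shNC cells, and 5′UTRs 2.33% in shNC cells. The region shares for the highest peak of each gene were not recorded over all genes. GGACU within 50 nt of the peak centre was found in 22.2% of USP peaks in shFTO cells, against 18.9% of all peaks. In shNC cells it was found in 16.3% of USP peaks, against 18.2%. The cause of these changes was not tested. The lists hold no counts, so the depth behind a score and the reads behind a missing peak are unknown.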
